A study of Mus musculus with 4 samples.

Results

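Transcript levels of 36 listed genes of glycolysis, glucose uptake, lactate export and the pentose phosphate pathway were followed through 4 sorted fractions of reprogramming mouse embryonic fibroblasts (MEFs). The genes were chosen by name, from the enzymes and transporters of these pathways, and where a gene had several probe sets the one with the highest average level was taken. A probe set of its own was found for 32 of the 36, out of 18194 named genes in all. Gpi1, Pfkfb1, Eno1 and G6pdx were not analysed here. The fractions, in the order used for all levels that follow, were first Oct4-negative, second Oct4+Klf4-negative, then Oct4+Klf4+EpCAM-negative and last Oct4+Klf4+EpCAM+. They were sorted after fixation, permeabilization and staining for the reprogramming factors Oct4 and Klf4 and the epithelial adhesion molecule EpCAM. Each fraction was read on 1 array. The introduced factors and their delivery, the day of sorting, the mouse strain and the number of cultures or embryos are not given in the sources used here, nor is any treatment. Whether the Oct4-negative cells grew in the same dish as the rest is not stated. The labels give no Klf4 gate for the Oct4-negative cells and no EpCAM gate for the cells without Klf4.

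Glycolysis splits glucose into pyruvate in the cytosol, and pyruvate is then either reduced to lactate and exported or passed to mitochondria through pyruvate dehydrogenase. Most steps can be run by several isoenzymes made from separate genes, some found in many tissues and others typical of muscle, brain or oxygen-poor cells. The oxidative arm of the pentose phosphate pathway branches from glucose 6-phosphate and makes NADPH. The non-oxidative arm interconverts sugar phosphates, ribose phosphate among them, with intermediates of glycolysis. Pluripotent cells are known for a high glycolytic rate, and a turn from oxidative metabolism toward glycolysis is a known part of reprogramming.

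The values were log2 levels from robust multi-array average (RMA) processing, with array medians between 4.49 and 4.55. Neighbouring gates were compared as the Oct4 step (Oct4-negative to Oct4+Klf4-negative), the Klf4 step (from Oct4+Klf4-negative up to Oct4+Klf4+EpCAM-negative) and the EpCAM step (Oct4+Klf4+EpCAM-negative to Oct4+Klf4+EpCAM+), and the ends of the series were compared with each other. Genes counted as called, higher or lower, where the log2 difference was at least 1 in size, which is 2-fold, and the brighter array reached the floor of 4.53, the median of all values. With 1 array per fraction there was no test and no replicate spread, and precision is limited by the small number of arrays. Probe sets of the same gene differed in their log2 differences by a median SD of 0.167, 0.172, 0.122 and 0.177 at the Oct4, Klf4 and EpCAM steps and between the ends, over 5709 genes. That spread within an array says nothing of other cultures or sorts. In each fraction, fewer cells that express a gene and less RNA per cell cannot be told apart. The 32 measured genes all reached the floor on at least 1 array, and 29 of them did so on all 4 arrays. Aldoc, Slc16a3 and Pdk4 were the exceptions.

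The pathway did not move as a block. Enzymes such as Gapdh, Pgam1 and Ldha had nearly the same level in the 4 fractions, while other genes of the pathway differed severalfold. From Oct4-negative to Oct4+Klf4+EpCAM+, Slc16a3, Pfkfb4, Aldoc, Pfkp, Hk2 and Pdk2 were higher, and Pdk4, Eno3, Pfkm and Pgam2 were lower. At the Oct4 step 1 of 32 members was higher and 4 were lower, against 3.59% and 4.84% of the 11429 genes reaching the floor. Called either way were 15.6% of members and 8.43% of those genes. At the Klf4 step 5 were higher and 1 was lower, against 8.44% and 6.88%, and either way 18.8% of members were called and 15.3% of genes. At the EpCAM step 1 was higher and 0 were lower, against 3.11% and 1.78%, and either way 3.12% of members and 4.89% of genes. Between the ends 6 were higher and 4 lower, against 11.9% and 10.8%, and either way 31.2% of members and 22.6% of genes. With a smaller size rule of 1.5-fold, 2 members were higher and 6 lower at the Oct4 step, against 8.25% and 9.69% of genes. By that rule 6 were higher and 1 was lower at the Klf4 step, against 15.2% and 12.8%, and 4 were higher and 1 was lower at the EpCAM step, against 6.52% and 4.9%. Between the ends 7 were higher and 5 lower by 1.5-fold, against 21.3% and 17.4%. By the 2-fold rule 11 of 32 members, or 34.4%, were called in at least 1 of the 4 comparisons, and the same held for 28.2% of all genes reaching the floor. The counts come from 32 genes, so single genes move these shares by 3.12 percentage points each, and none of the differences from all genes was tested. The median log2 difference of the members was -0.01, 0.03, 0.09 and 0.12 at the Oct4, Klf4 and EpCAM steps and between the ends, beside 0.02, 0.04, 0.00 and 0.07 for all genes. When each array was instead scaled to 21 housekeeping genes, 5 members were higher and 5 lower between the ends, and of all genes 9.60% were higher and 13.5% lower. That scaling lowered all log2 differences between the ends by 0.20.

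**Figure D1:**
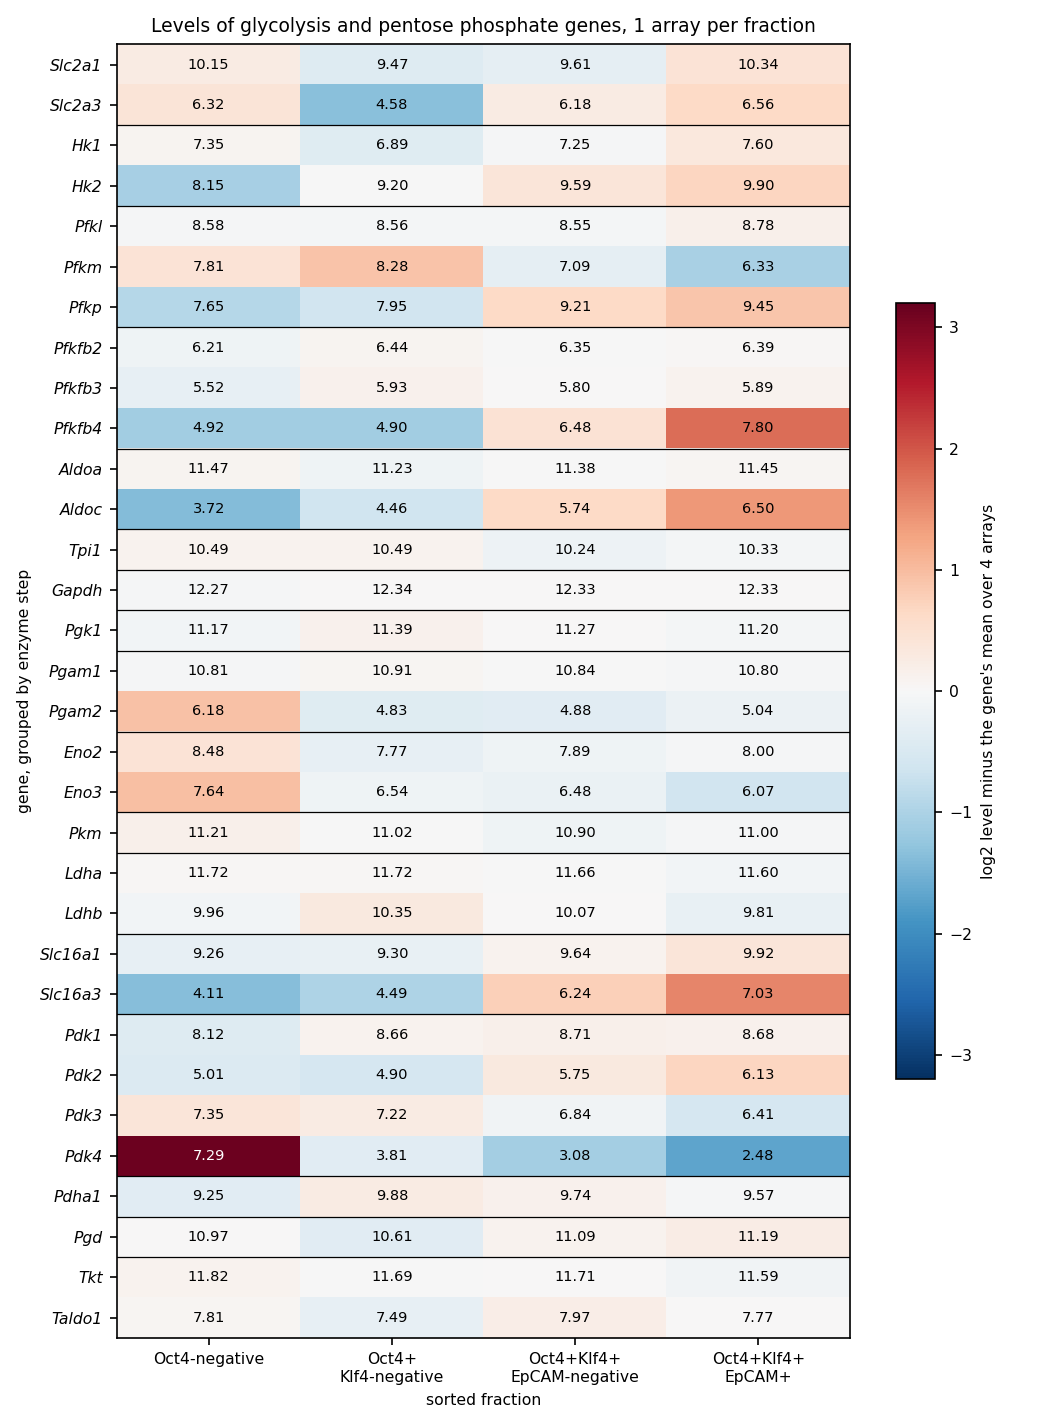
Log2 RMA level of each of the 32 measured genes (rows, grouped by enzyme step) on each of the 4 arrays (columns), with the level printed in its cell and the colour showing the level minus the gene's mean over the arrays. Slc16a3, Pfkfb4 and Aldoc run from blue on the left to red on the right, Pdk4 runs the other way, and the rows of Gapdh, Pgam1 and Ldha are nearly white.

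Glucose enters the cell through facilitative transporters. Slc2a1, which encodes the widely expressed transporter GLUT1, had log2 levels of 10.15, 9.47, 9.61 and 10.34 in the order of fractions given above. It was lowest in the Oct4+Klf4-negative array and no step reached 2-fold, with log2 differences of -0.68, 0.13 and 0.73. The other probe sets of Slc2a1 gave between -0.66 and -0.61 at the Oct4 step and between 0.69 and 0.70 at the EpCAM step. Slc2a3, which encodes the high-affinity transporter GLUT3 of neurons and early embryos, had levels of 6.32, 4.58, 6.18 and 6.56. Its level in the Oct4+Klf4-negative array stood apart from the other 3 arrays, 3.34-fold lower than in the Oct4-negative array and 3.03-fold lower than in the Oct4+Klf4+EpCAM-negative array. The ends differed by only 1.18-fold. The chosen probe set of Slc2a3 is of a kind that can read several transcripts. A further set of that kind gave log2 differences of -1.29 and 1.07 at the Oct4 and Klf4 steps. Neither of the remaining sets reached the floor, and they gave -0.59 and 0.53 for the only one without a mark for several transcripts and 0.11 and -0.10 for the other. With the mean of its sets Slc2a3 was called at neither step, with log2 differences of -0.88 and 0.78. The Oct4+Klf4-negative array held the lowest level of 10 of the 32 members, among them Hk1, Pgd and Taldo1 as well as both transporters, and 26.3% of all genes reaching the floor were lowest there.

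Hexokinases trap glucose in the cell by phosphorylating it. Hk1, the isoenzyme of most tissues, had levels of 7.35, 6.89, 7.25 and 7.60, with no step reaching 2-fold by the chosen probe set. Its other probe set gave -0.90 at the Oct4 step and 1.08 at the Klf4 step. Hk2, the inducible isoenzyme of insulin-sensitive tissues and of proliferating cells, had levels of 8.15, 9.20, 9.59 and 9.90. Each later fraction was higher than the one before it, by 2.08-fold, 1.31-fold and 1.24-fold, and the ends differed by 3.37-fold. Hk2 had a single probe set, so no other set checks it. Its call at the Oct4 step was lost with the housekeeping scaling, where the log2 difference was 0.98. Set against the chosen probe set of Hk1, Hk2 was 2.87-fold further up at the Oct4 step and 2.84-fold between the ends. At the Klf4 and EpCAM steps that pair of sets moved together to within 1.04-fold. The other set of Hk1 gave 1.08 and 0.02 at those steps, beside 0.39 and 0.31 for Hk2, so this closeness depends on the probe set.

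Phosphofructokinase commits the sugar to glycolysis, and its subunits come from 3 genes named for liver, muscle and platelets. Pfkl, the liver-type subunit, stayed between 8.55 and 8.78 in the 4 arrays. Pfkm, the muscle-type subunit, had levels of 7.81, 8.28, 7.09 and 6.33. Pfkp, the platelet-type subunit, had levels of 7.65, 7.95, 9.21 and 9.45. The latter pair differed in opposite directions at the Klf4 step, where Pfkm was 2.29-fold lower and Pfkp 2.40-fold higher. Between the ends Pfkm was 2.78-fold lower and Pfkp 3.48-fold higher, so that the ratio of their probe set levels differed by 9.67-fold. The 2 other probe sets of Pfkp were also higher at the Klf4 step, by log2 differences of 0.77 and 1.48, but gave -0.23 and -0.46 at the Oct4 step against 0.30 for the chosen set. Between the ends they gave 0.96, short of 2-fold, and 1.32, both below the 1.80 of the chosen set. With the mean of the sets Pfkp was still called between the ends, at 1.36. Pfkm had 1 probe set. At the EpCAM step Pfkm was again on the lower side, with a log2 difference of -0.76, short of 2-fold.

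The bifunctional PFKFB enzymes make and degrade fructose 2,6-bisphosphate, the strongest allosteric activator of phosphofructokinase. Pfkfb2, the heart-type form, stayed between 6.21 and 6.44. Pfkfb3, the form with high kinase activity that is common in proliferating cells, stayed between 5.52 and 5.93. Its other probe set gave a log2 difference of 0.94 at the Oct4 step, against 0.41 for the chosen one. Pfkfb4, a form known from testis and from cells short of oxygen, had levels of 4.92, 4.90, 6.48 and 7.80. The levels of the first and second fractions lay near the floor, and the levels of both Klf4-positive fractions were higher. Pfkfb4 was 2.99-fold higher at the Klf4 step and higher by a log2 difference of 1.32 at the EpCAM step, where it was the only one of the 32 members called, and it was 7.39-fold higher between the ends. It had 1 probe set. Relative to Pfkfb3, Pfkfb4 was 5.73-fold further up between the ends.

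Aldolase splits fructose 1,6-bisphosphate into triose phosphates. Aldoa, the form of muscle and most dividing cells, stayed between 11.23 and 11.47, and its 5 probe sets gave log2 differences between -0.07 and 0.01 between the ends. Aldoc, the form of brain, had levels of 3.72, 4.46, 5.74 and 6.50. The level of Aldoc was below the floor in the first and second fractions and above it in both Klf4-positive arrays, with steps of 1.67-fold, 2.43-fold and 1.70-fold and 6.89-fold between the ends. Its other probe set did not reach the floor and gave 0.43 at the Klf4 step and 0.74 between the ends on the log2 scale, the same direction without a call. With the mean of both sets the log2 difference at the Klf4 step was 0.86, also without a call. Of the PFKFB and aldolase genes, Pfkfb4 and Aldoc were thus called and Pfkfb2, Pfkfb3 and Aldoa were not.

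The measured enzymes from triose phosphate to pyruvate hardly differed between the fractions, apart from isoforms typical of muscle and nerve. Tpi1, which interconverts the triose phosphates, had levels of 10.49, 10.49, 10.24 and 10.33. Gapdh, the glyceraldehyde 3-phosphate dehydrogenase, was read by a control probe set at 12.27, 12.34, 12.33 and 12.33, a range of 0.067. Among probe sets not meant as controls, the one with the highest levels also reads related sequences and gave 12.55, 12.64, 12.68 and 12.66. The control sets for the 3′ and 5′ ends of Gapdh differed by 1.04, 1.30, 1.04 and 0.97 in the 4 arrays, widest in the Oct4+Klf4-negative array. Those of beta-actin differed by -0.059, -0.051, -0.057 and -0.065, nearly the same in each array. The part of RNA integrity in the values of the members was not tested. Pgk1, a kinase that yields ATP, stayed between 11.17 and 11.39. Pgam1, the common phosphoglycerate mutase, stayed between 10.80 and 10.91. Pgam2, its muscle form, had levels of 6.18, 4.83, 4.88 and 5.04, highest in the Oct4-negative array and 2.54-fold lower at the Oct4 step.

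Enolase gave a further contrast, read without Eno1, which had no probe set of its own here. Eno2, the neuronal enolase, had levels of 8.48, 7.77, 7.89 and 8.00 and was not called at any step. Eno3, the muscle enolase, had levels of 7.64, 6.54, 6.48 and 6.07, 2.15-fold lower at the Oct4 step and 2.96-fold lower between the ends. Both were highest in the Oct4-negative array. The muscle forms Pgam2, Eno3 and Pfkm were lower between the ends, though Pfkm was highest in the Oct4+Klf4-negative array. Aldoa, named above as a form of muscle too, differed by -0.02 on the log2 scale between the ends. Hk2, the form of insulin-sensitive tissues, was 3.37-fold higher there. Of 6 skeletal muscle markers, Myod1 and Des reached the floor on any array, with Des at 4.61, 4.51, 5.65 and 5.05. Myog, Ckm, Myh3 and Acta1 did not reach it on any array. The log2 of the summed level of this marker list, most of it from genes below or near the floor, was 6.34, 6.42, 6.83 and 6.64. The part of muscle-type cells in the levels of Pgam2, Eno3 and Pfkm was not tested. Pkm, the pyruvate kinase, had levels of 11.21, 11.02, 10.90 and 11.00. The splice forms of Pkm were not read apart here.

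Lactate dehydrogenase turns pyruvate into lactate and back. Ldha, which encodes the subunit common in glycolytic tissue, had levels of 11.72, 11.72, 11.66 and 11.60. Ldhb, the subunit common in oxidative tissue, had levels of 9.96, 10.35, 10.07 and 9.81, highest in the Oct4+Klf4-negative array, with no difference reaching 2-fold. The pair differed in their changes by no more than 1.32-fold in any of the 4 comparisons. Lactate leaves the cell with a proton through monocarboxylate transporters. Slc16a1, which encodes the widespread transporter MCT1, had levels of 9.26, 9.30, 9.64 and 9.92, 1.57-fold higher between the ends. Slc16a3, which encodes MCT4, the low-affinity exporter of strongly glycolytic cells, had levels of 4.11, 4.49, 6.24 and 7.03. The levels of the first and second fractions were below the floor, and those of both Klf4-positive arrays above it. Slc16a3 was 3.35-fold higher at the Klf4 step, 1.74-fold higher at the EpCAM step and 7.57-fold higher between the ends, beside 7.39-fold for Pfkfb4. It had 1 probe set. The chaperone gene of both transporters, Bsg, which is not a member, stayed between 10.05 and 10.45.

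**Figure D2:**
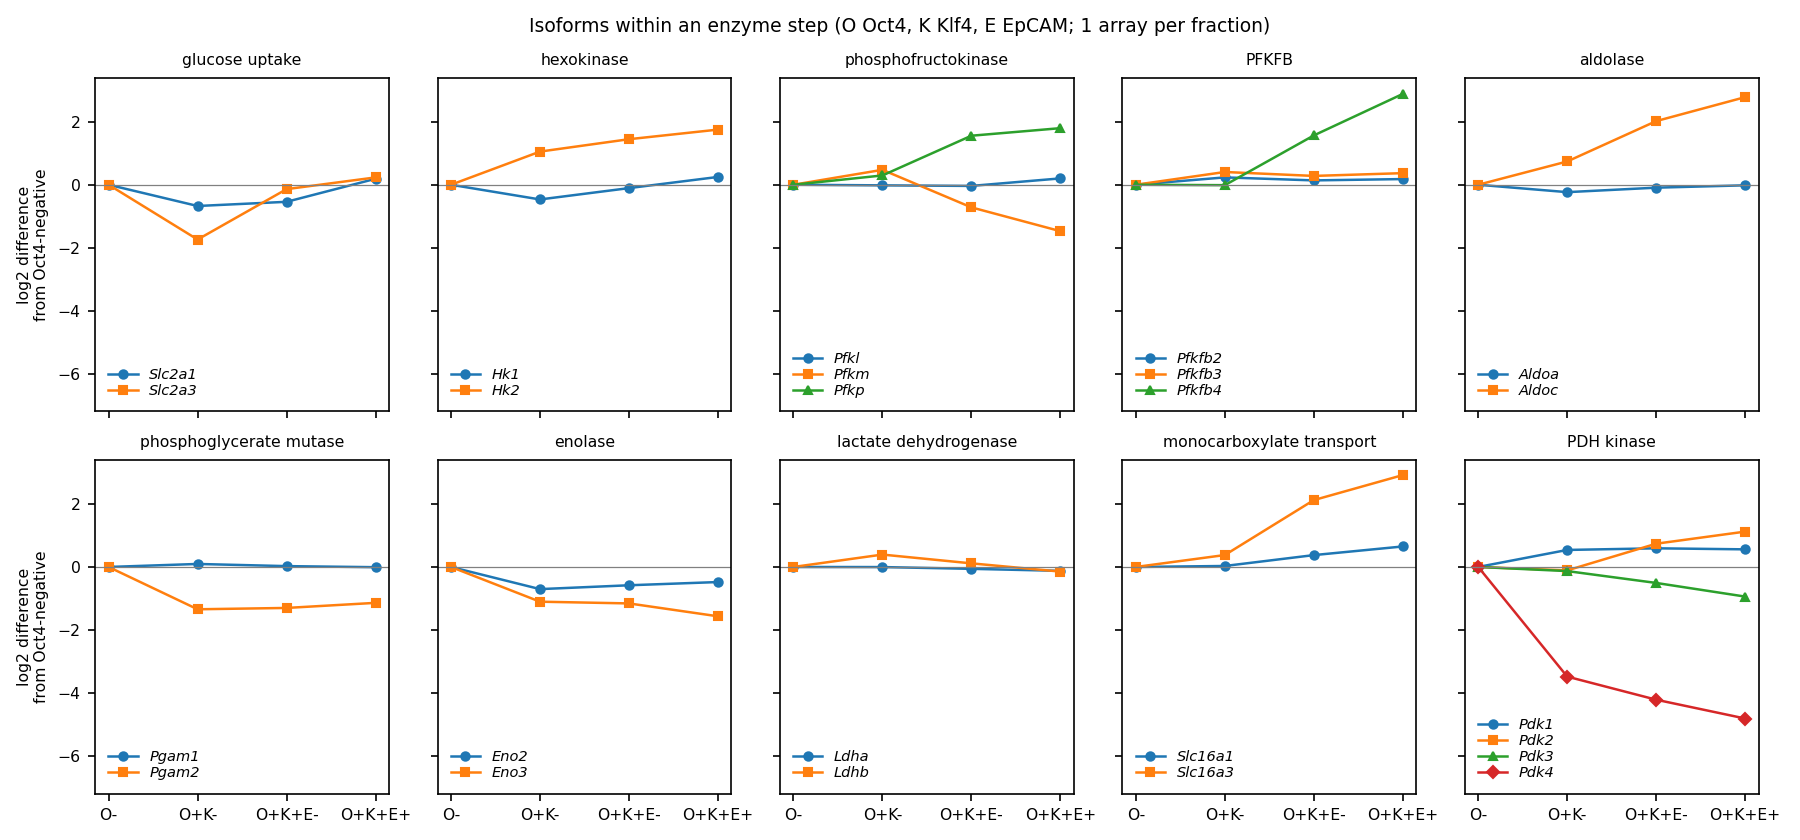
Log2 difference of each isoform from its own Oct4-negative level (vertical axis) through the fractions (horizontal axis; O, K and E stand for Oct4, Klf4 and EpCAM), 1 panel per enzyme step and 1 array per fraction. In the panels of phosphofructokinase, PFKFB, aldolase and monocarboxylate transport 1 isoform ends above the others, between 1.80 and 2.92, and Pdk4 is drawn at its measured -4.82, of which only a bound of at least 20.4-fold can be read, since its last level lies below the ceiling of 2.94.

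Upstream sequence is shown for Hk2, Pfkp, Pfkfb4, Aldoc and Slc16a3, the members called higher in the ends comparison with the largest differences, and for Ldha, whose level hardly differed. The 250 bases before the annotated transcript start were taken from RefSeq (GRCm38.p6). Each is written 5′ to 3′ on the strand of its gene, with capitals marking ACGTG or GCGTG on either strand, the core letters bound by hypoxia-inducible factors, among other proteins. On the opposite strand the same letters read CACGT or CACGC, and a palindromic CACGTG counts once on each strand. The windows are chr6:82774455-82774704 (minus strand) for Hk2, chr13:6648772-6649021 (minus strand) for Pfkp, chr9:108991652-108991901 (plus strand) for Pfkfb4, chr11:78322823-78323072 (plus strand) for Aldoc, chr11:120948817-120949066 (plus strand) for Slc16a3 and chr7:46845554-46845803 (plus strand) for Ldha. Aldoc and Ldha have a further annotated start, not shown.
Hk2: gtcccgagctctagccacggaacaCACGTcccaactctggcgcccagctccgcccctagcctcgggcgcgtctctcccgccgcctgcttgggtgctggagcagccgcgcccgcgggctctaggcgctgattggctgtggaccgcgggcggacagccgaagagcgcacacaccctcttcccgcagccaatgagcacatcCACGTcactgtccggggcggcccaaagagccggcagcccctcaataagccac
Pfkp: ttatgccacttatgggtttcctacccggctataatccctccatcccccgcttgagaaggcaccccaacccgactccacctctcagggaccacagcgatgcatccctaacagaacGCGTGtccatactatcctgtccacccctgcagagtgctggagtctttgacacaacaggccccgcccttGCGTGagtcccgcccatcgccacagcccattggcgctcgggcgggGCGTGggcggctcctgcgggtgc
Pfkfb4: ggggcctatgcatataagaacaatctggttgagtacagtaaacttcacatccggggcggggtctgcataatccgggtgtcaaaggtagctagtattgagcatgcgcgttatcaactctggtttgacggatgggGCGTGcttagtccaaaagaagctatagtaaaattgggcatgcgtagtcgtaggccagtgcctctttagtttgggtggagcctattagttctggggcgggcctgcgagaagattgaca
Aldoc: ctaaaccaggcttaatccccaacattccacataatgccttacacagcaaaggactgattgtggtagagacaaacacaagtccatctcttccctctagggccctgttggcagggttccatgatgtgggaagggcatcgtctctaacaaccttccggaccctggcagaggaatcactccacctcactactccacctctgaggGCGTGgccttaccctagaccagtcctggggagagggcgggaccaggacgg
Slc16a3: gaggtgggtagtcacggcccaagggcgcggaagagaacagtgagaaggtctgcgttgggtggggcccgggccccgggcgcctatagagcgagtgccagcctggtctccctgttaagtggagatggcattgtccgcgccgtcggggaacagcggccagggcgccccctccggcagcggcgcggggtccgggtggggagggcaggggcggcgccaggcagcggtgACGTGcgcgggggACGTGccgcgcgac
Ldha: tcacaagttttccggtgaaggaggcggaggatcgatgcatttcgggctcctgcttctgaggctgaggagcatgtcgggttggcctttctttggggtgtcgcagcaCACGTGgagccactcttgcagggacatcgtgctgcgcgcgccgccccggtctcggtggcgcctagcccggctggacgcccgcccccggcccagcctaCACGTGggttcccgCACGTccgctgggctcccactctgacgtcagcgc

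The windows of Hk2 and Slc16a3 held 2 matches each, both of the ACGTG form. That of Pfkp held 3 of the GCGTG form, and those of Pfkfb4 and Aldoc held 1 of that form each. The window of Ldha held 5 matches of ACGTG at 3 places, 2 of which are CACGTG and count on both strands, and Ldha was not called in any comparison. Promoter windows were listed for 35 of the 36 genes, 55 windows in all, of which 41 (74.5%) held ACGTG or GCGTG. Of 11890 windows of genes reaching the floor the share was 56.0%, and of all 32851 windows 38.6%. CACCC, the letters recognised by Klf factors among others and searched on both strands, was in 36 of the 55 windows (65.5%), in 58.3% of the windows of genes reaching the floor and in 52.0% of all windows. A match is a string of letters and shows no binding.

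Pyruvate dehydrogenase carries pyruvate into the tricarboxylic acid cycle, and 4 kinases, encoded by Pdk1 to Pdk4, switch it off by phosphorylation. Pdk4, the kinase induced by fasting, glucocorticoids and fatty acids, had the largest difference of all members, with levels of 7.29, 3.81, 3.08 and 2.48. Only the Oct4-negative array reached the floor. Pdk4 was 11.2-fold lower at the Oct4 step and at least 20.4-fold lower between the ends. The bound is given because the level in the Oct4+Klf4+EpCAM+ array lay below 2.94, the ceiling set by 27 dim bacterial controls. For the same reason its difference at the EpCAM step has no reading beyond at least 1.10-fold. Pdk4 had 1 probe set.

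The other kinases of the family moved less and in different directions. Pdk1, a target of hypoxia signalling, had levels of 8.12, 8.66, 8.71 and 8.68. It was lowest in the Oct4-negative array, with a log2 difference of 0.54 at the Oct4 step, and the other 2 probe sets reaching the floor gave 0.80 and 0.84 there. Pdk2, the most widespread kinase, had levels of 5.01, 4.90, 5.75 and 6.13, 2.18-fold higher between the ends. That call was lost with the housekeeping scaling, where the log2 difference was 0.92. Pdk3 had levels of 7.35, 7.22, 6.84 and 6.41 and a log2 difference of -0.94 between the ends, which became -1.15, a call, with the same scaling. Pdk4 was thus 16.3-fold further down than Pdk1 at the Oct4 step, 10.4-fold further than Pdk2 and 10.2-fold further than Pdk3. Pdha1, the catalytic subunit that these kinases phosphorylate, had levels of 9.25, 9.88, 9.74 and 9.57, also lowest in the Oct4-negative array and 1.54-fold higher at the Oct4 step. Its other probe set gave a log2 difference of 0.53 at that step.

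The 3 measured pentose phosphate members were not called in any comparison, while 28.2% of all genes were called in at least 1. Pgd, the 6-phosphogluconate dehydrogenase of the oxidative arm, had levels of 10.97, 10.61, 11.09 and 11.19. Tkt, the transketolase of the non-oxidative arm, stayed between 11.59 and 11.82. Taldo1, the transaldolase of the same arm, had levels of 7.81, 7.49, 7.97 and 7.77. Pgd and Taldo1 shared a low point in the Oct4+Klf4-negative array, with log2 differences of -0.36 and -0.33 at the Oct4 step and of 0.48 and 0.49 at the Klf4 step. All 4 probe sets of Pgd had the same signs at these steps.

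**Figure D3:**
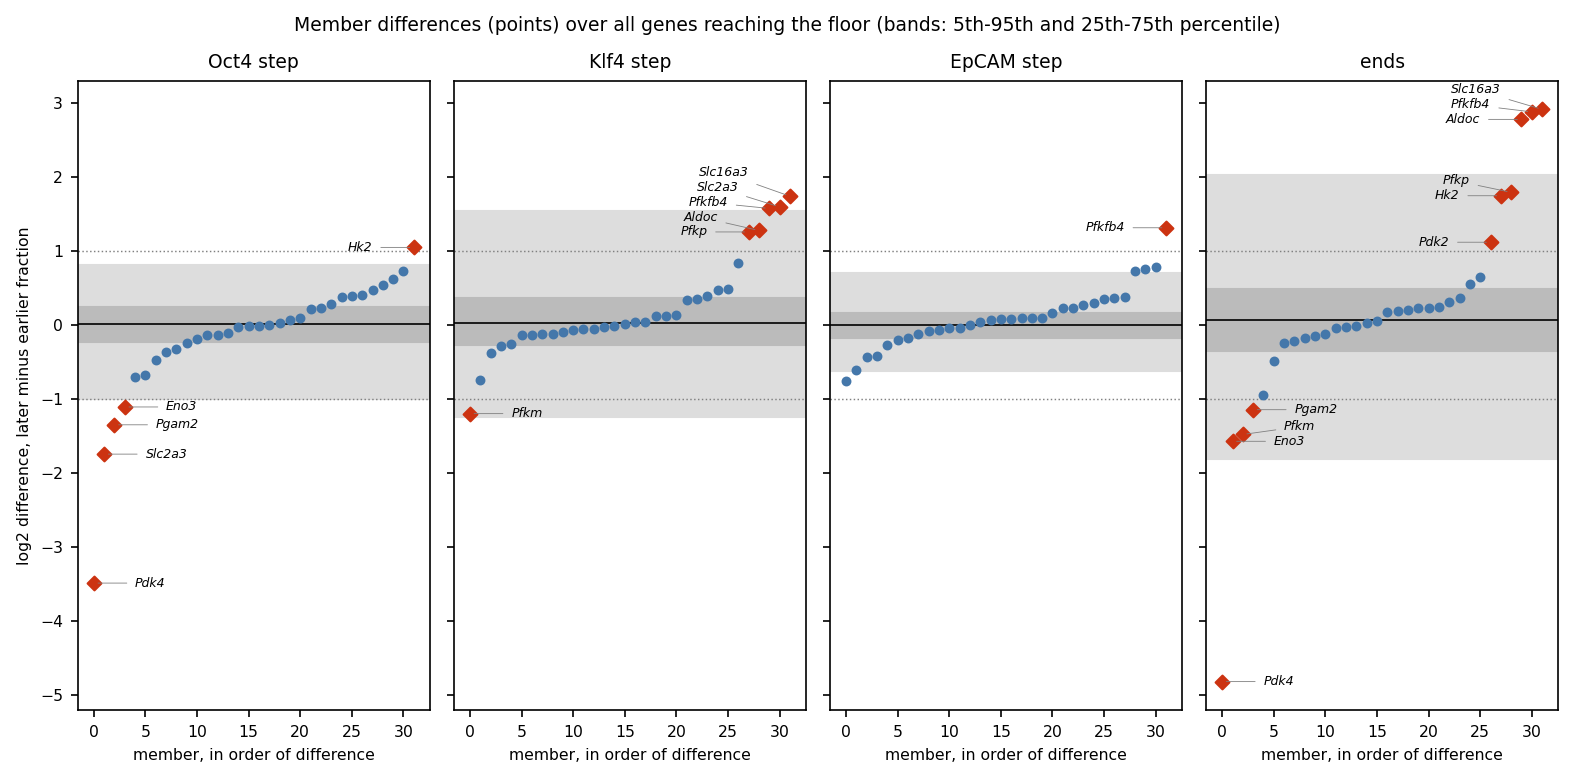
Log2 differences of the 32 members (points, in order of size, with red diamonds for called members) in each of the 4 comparisons, over bands holding the 25th to 75th and 5th to 95th percentile of the 11429 genes reaching the floor; dotted lines mark 2-fold. Most members lie within the wider band, and Pdk4 lies far below it at the Oct4 step and between the ends, where its drawn value is under the ceiling of 2.94 and only a bound can be read.

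Isoforms of the same step were then compared by their differences, since levels of different probe sets cannot be set against each other. The 32 members form 20 pairs within a step, many of which share a gene. At the Oct4 step 6 of 20 pairs moved apart by at least 2-fold, against 18.2% of all pairs of genes reaching the floor. At the Klf4 step 10 of 20 did, against 30.1%, and at the EpCAM step 2 of 20, against 11%. Between the ends 15 of 20 pairs had moved apart, against 40.8%. Of these 15, 3 hold Pdk4 and 4 hold Pfkfb4 or Pfkp. The pairs that did not reach 2-fold between the ends were Slc2a1 with Slc2a3, Pfkfb2 with Pfkfb3, Ldha with Ldhb, Pdk1 with Pdk2, and Tkt with Taldo1. Slc2a1 and Slc2a3 had moved apart by 2.09-fold at the Oct4 step and by 2.77-fold the other way at the Klf4 step, and stood within 1.03-fold between the ends. A shared rule of direction was also read over the 3 steps. Hk2, Pfkp, Aldoc and Slc16a3 were higher at each step in turn and at least 2-fold between the ends, 4 of 32 members against 5.28% of all genes. For Pfkp this rests on the chosen probe set, since the others were lower at the Oct4 step. For Aldoc and Slc16a3 both levels compared at the Oct4 step lay below the floor. Eno3 and Pdk4 were lower at each step by the same rule, against 5.19% of all genes. The log2 difference of Eno3 at the Klf4 step was only -0.05. Pdk4 lay below the floor from the second fraction on, and its last level lay below the ceiling.

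Most members with a high level had a small range. The range over the 4 arrays was under 1.5-fold for 14 of 32 members (43.8%), against 47.1% of all genes reaching the floor. Of 13 members with a mean level above the 95th percentile of all values, 10 had so small a range, and the exceptions were Slc2a1, Slc16a1 and Pdha1. The share among these members, 76.9%, was near the 79.7% of 1244 genes at such levels. Of the 19 other members, Pfkl, Pfkfb2, Pfkfb3 and Taldo1 had a range under 1.5-fold, or 21.1%, against 43.1% of 10185 genes. The median range was 1.34 for those 19 members and 0.68 for those genes. Among all genes, those with high levels had the smaller ranges, and whether bright probe sets were compressed was not tested.

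**Figure D4:**
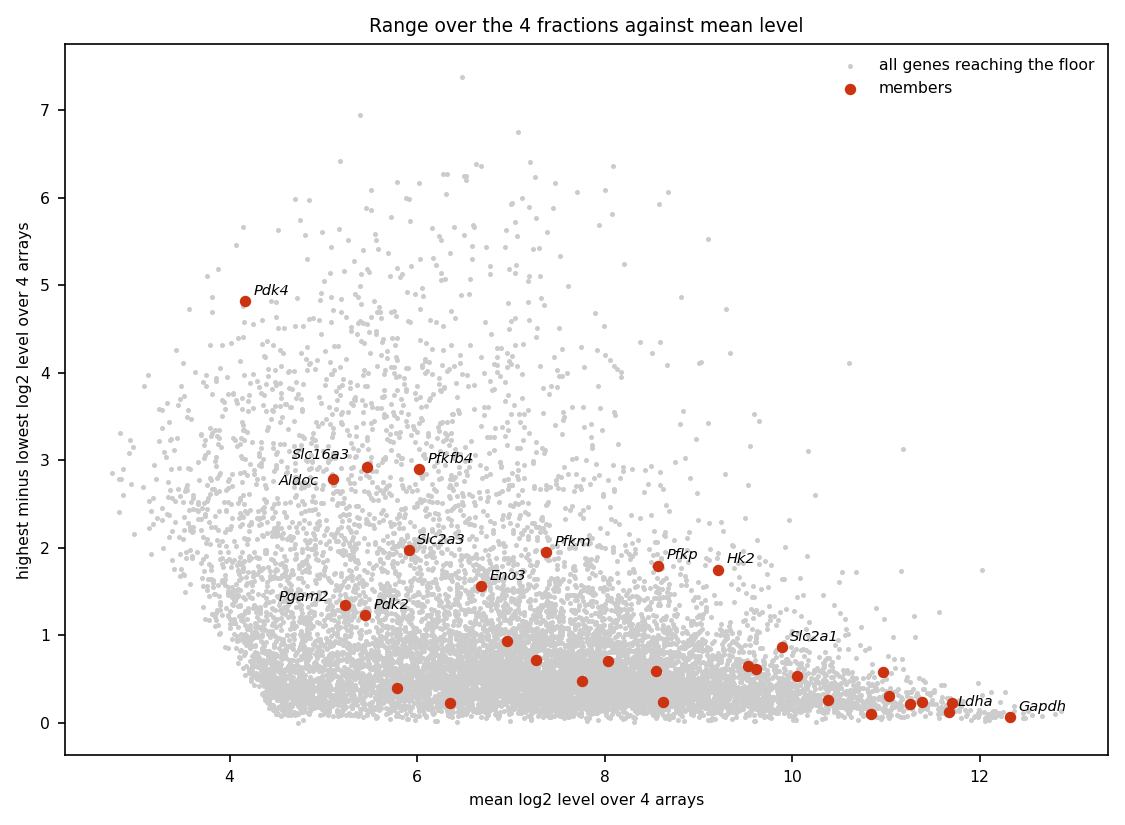
Highest minus lowest log2 level over the 4 arrays (vertical axis) against the mean log2 level (horizontal axis), for all genes reaching the floor (grey) and the 32 members (red). Members with a mean level above about the 95th percentile sit near the bottom with most other genes of that level, and Pdk4, Slc16a3, Pfkfb4 and Aldoc lie highest among the members.

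Further genes of the pathway were read as lists. Of 35 further isoenzymes, transporters and gluconeogenic enzymes on the array, 22 reached the floor. At the Oct4 step 0 of them were higher and 1 was lower, against the 3.59% and 4.84% of all genes given above. At the Klf4 step the counts were 2 and 2, against 8.44% and 6.88%, and at the EpCAM step 1 and 0, against 3.11% and 1.78%. Between the ends they were 5 and 2, against 11.9% and 10.8%. Slc2a6, a lysosomal transporter of the same family, had levels of 5.14, 5.39, 8.38 and 8.82, 7.91-fold higher at the Klf4 step. Slc2a10, which encodes GLUT10, had levels of 2.99, 3.63, 5.24 and 6.80, 3.06-fold higher at the Klf4 step and 2.95-fold higher at the EpCAM step. Slc2a9, a urate transporter of the family, was 3.11-fold lower at the Oct4 step, with levels of 7.92, 6.28, 6.21 and 5.62. Pcx, the pyruvate carboxylase that feeds gluconeogenesis and the tricarboxylic acid cycle, was 4.25-fold lower at the Klf4 step. Bpgm, which makes 2,3-bisphosphoglycerate, was 2.23-fold lower there. Tigar, a fructose bisphosphatase, Gpd2 and Gpd1l, enzymes of glycerol 3-phosphate, were 2.28-fold, 2.03-fold and 2.90-fold higher between the ends. The third hexokinase gene, Hk3, had levels between 4.91 and 5.11, and Hkdc1 did not reach the floor.

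The other subunits of pyruvate dehydrogenase, its phosphatases and the pyruvate carrier held no call. Of 9 such genes on the array 8 reached the floor, and 0 were higher and 0 lower in each of the 4 comparisons. Of all genes reaching the floor, 8.43%, 15.3%, 4.89% and 22.6% were called either way, so few calls were to be looked for among 8 genes. Mpc1, a subunit of the mitochondrial pyruvate carrier, stayed between 6.77 and 7.23. Of 10 further pentose phosphate genes 7 reached the floor, and the only call was H6pd, the oxidative enzyme of the endoplasmic reticulum, 3.09-fold lower between the ends. Of all genes 10.8% were lower there. The median log2 difference of those 7 pentose phosphate genes was -0.44 between the ends, beside 0.07 for all genes.

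Regulators of the response to low oxygen and of glucose sensing had 17 of 20 members reaching the floor. At the Oct4 and EpCAM steps 0 were called, at the Klf4 step 2 were higher and 0 lower, against 8.44% and 6.88% of all genes, and between the ends 4 were higher and 0 lower, against 11.9% and 10.8%. Epas1, which encodes HIF-2 alpha, had levels of 4.97, 5.30, 7.05 and 6.57 and was 3.37-fold higher at the Klf4 step. Egln3, a prolyl hydroxylase that is itself induced by hypoxia, had levels of 5.09, 4.39, 5.93 and 6.73, 2.90-fold higher at that step. Hif1a had levels of 8.92, 8.61, 8.49 and 8.48 and was not called. Txnip, a brake on glucose uptake, had levels of 7.79, 6.89, 6.93 and 7.33 and was not called either. The remaining calls between the ends were Hif3a and Prkaa2, 2.57-fold and 2.28-fold higher.

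The labelled cell type was checked against marker genes. Of 10 fibroblast markers 9 reached the floor on every array, and Pdgfra reached it on none. The log2 of the summed level of the fibroblast list was 14.10, 13.33, 12.85 and 12.05, so the sum was lower in each later fraction. Single markers differed in both directions. At the Oct4 step 2 were higher, Thy1 and Dcn, and 4 lower, against 3.59% and 4.84% of all genes. At the Klf4 step 2 were higher, Dcn and S100a4, and 6 lower, against 8.44% and 6.88%. Between the ends 8 of the 10 were called lower, against 10.8% of all genes, with Dcn the exception in the other direction. Keratinocyte markers had 5 of 8 members reaching the floor, with summed log2 levels of 7.74, 7.71, 8.37 and 9.64. Their 2 calls, Krt14 and Krt1, were higher at the Klf4 and EpCAM steps, where Pfkfb4 was higher too, against 8.44% and 3.11% of all genes. Trp63, Krt15 and Col17a1 did not reach the floor. Neural markers had 4 of 6 reaching it, with summed log2 levels of 8.86, 11.03, 10.51 and 10.75, and Pax6 and Gfap below it. The sum hides opposite directions at the Klf4 step, where 2 were higher and 2 lower, against 8.44% and 6.88% of all genes. Tubb3 went from 4.53 to 8.84 and Sox1 from 5.05 to 9.10, while Map2 went from 10.36 to 8.43 and Nefl from 9.46 to 6.53. Macrophage and leukocyte markers had 2 of 6 reaching the floor, Cd68 and Cd14, and Ptprc, Adgre1, Csf1r and Itgam were below it. Their summed log2 levels were 8.06, 6.57, 7.12 and 7.21. This sum was lowest in the Oct4+Klf4-negative array, as were 10 members, Slc2a3 among them, and 26.3% of all genes reaching the floor. Erythroid markers had 2 of 4 reaching the floor, Hbb-y and Alas2, with summed log2 levels of 5.93, 6.17, 9.08 and 8.13. The higher sum after the Klf4 step came from Hbb-y, which went from 2.73 to 8.95 there, while Alas2 went from 5.58 to 4.87. Hba-a1 and Epor stayed below the floor. The part of these other cell types in the differences of the members was not tested.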

How the data were processed

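Per the labels' protocols, RNA of the fixed cells was recovered with RecoverAll (Ambion), and NuGEN's Ovation Pico WTA kit gave biotinylated cDNA. For 45101 probe sets the authors deposited log2 levels made with RMA, per the submitters' processing notes; its version and settings are not given in the sources used here. Fixation and amplification can change levels with RNA integrity.

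Genes were named through the platform annotation where a probe set had 1 symbol. Control probe sets (64) were left out, except for Gapdh, which had no other set with 1 symbol. The probe set of highest average level stood for each gene, and a call needed a 2-fold difference and a level at the floor. By rule, each of the 36 members is named, 4 of them as having no probe set of 1 symbol. A fold with a dimmer level under 2.94 is a bound against that level. Calls by size were tested on simulated data. Alternatives changed the probe set, the floor, the scaling (21 housekeeping genes) and the size rule (1.5-fold); 1 more, another probe set for Gapdh, was added after seeing the data. The members and gene lists were chosen with earlier results of these data known. Python 3.11.15, pandas 2.3.3 and matplotlib 3.10.9 were used.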

Additional observations from a re-analysis of the deposited data

How the results depend on the processing

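With the mean of all probe sets of a gene, 3 members rather than 5 were higher at the Klf4 step, against 7.70% of all genes. The count was also 3, against 8.36% of all genes, without probe sets that can read several transcripts. Under that last setting 23 members had a set and 21 reached the floor. Slc2a3 and Aldoc lost their calls at the Klf4 step under both settings, and Slc2a3 also lost its call at the Oct4 step. Without sets that can read several transcripts Aldoc lost its call between the ends too, at 0.74 on the log2 scale. With the floor at the 75th percentile, 2 rather than 4 members were lower at the Oct4 step and 1 rather than 5 was higher at the Klf4 step, where the brighter array of each lost call lay under that floor. Of all genes 4.01% were then lower at the Oct4 step and 6.55% higher at the Klf4 step. Between the ends 4 rather than 6 were then higher, without Aldoc and Pdk2, and 3 rather than 4 lower, without Pgam2. With the housekeeping scaling, 0 rather than 1 member was higher at the Oct4 step, against 3.23% of all genes. That scaling turned the median log2 difference of the members between the ends from 0.12 to -0.0837. It also turned the sign of 3, 3, 1 and 5 members in the 4 comparisons, with log2 differences of at most 0.20 in size. With a 1.5-fold rule, 2 members were higher at the Oct4 step, and 4 were higher and 1 was lower at the EpCAM step, against the shares of all genes given above for that rule. Leaving out the floor changed no member's call, nor did another probe set for Gapdh, and under no setting did a called member change sign. No paired analysis was possible because each fraction has 1 array.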

Other observations

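Targets of hypoxia signalling outside glycolysis did not move one way. Of 28 such genes on the array 27 reached the floor. At the Oct4 step 1 was higher and 4 were lower, against 3.59% and 4.84% of all genes reaching the floor. At the Klf4 step 5 were higher and 2 lower, against 8.44% and 6.88%, and at the EpCAM step 1 was higher and 1 lower, against 3.11% and 1.78%. Between the ends 5 were higher and 6 lower, against 11.9% and 10.8%. Ndrg1, a gene of differentiation that hypoxia induces, had levels of 5.55, 5.95, 9.14 and 9.52, 9.10-fold higher at the Klf4 step. Bhlhe40, a transcriptional repressor, was 3.71-fold higher at that step and Ak4, a mitochondrial adenylate kinase, 2.14-fold higher. Adm, which encodes the vasodilator peptide adrenomedullin, went the other way with levels of 10.52, 9.18, 7.11 and 8.42, and Ddit4, an inhibitor of mTOR signalling, was 2.28-fold lower at the Klf4 step. Vegfa stayed between 6.27 and 6.90, and Car9 did not reach the floor.

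The tricarboxylic acid cycle list had 22 genes reaching the floor. Its only call was Me1, the cytosolic malic enzyme that makes NADPH, 3.26-fold higher at the Klf4 step and 3.47-fold higher between the ends. Of all genes, 8.43%, 15.3% and 4.89% were called at the Oct4, Klf4 and EpCAM steps and 22.6% between the ends. In the serine branch, which leaves glycolysis at 3-phosphoglycerate, 8 of 8 genes reached the floor and none was called at a single step. Psph, which releases serine, and Mthfd2, a mitochondrial folate enzyme, were 2.59-fold and 2.21-fold higher between the ends, where 11.9% of all genes were higher. Phgdh, the first enzyme of the branch, stayed between 11.31 and 11.47. Among the 21 housekeeping genes used for scaling, Tfrc was 2.33-fold higher between the ends, and B2m and Gusb were 2.11-fold and 2.10-fold lower. Of all genes 11.9% were higher and 10.8% lower there.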
